A study of Mus musculus with 18 samples.

Results

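Chaperones bind unfolded or partly folded proteins, help them reach their final shape, and pass those that cannot be folded to degradation. The genes studied here encode mainly the chaperones of the cytosol, nucleus and mitochondria and their co-chaperones. They include the heat shock factors *Hsf1* and *Hsf2*, which control the transcription of many of them. They were selected by gene symbol: families Hspa, Hspb, Hsph, Hspd, Hspe, Dnaja, Dnajb, Dnajc, Bag and Cct followed by a number, together with *Hsp90aa1*, *Hsp90ab1*, *Hsf1* and *Hsf2*. Among 55487 genes in the count tables, 83 matched, and 79 of them reached at least 10 counts in 4 or more of 18 libraries. The 4 that did not were *Dnajc5b*, *Dnajc5g*, *Dnajb8* and *Hspb3*, named because they failed this minimum. *Hspa5*, *Dnajb9*, *Dnajb11* and *Dnajc3*, chaperones of the endoplasmic reticulum, were left out and are described apart. Another 8 genes assigned to the endoplasmic reticulum match the symbols and were kept. A selection by symbol also takes in genes with other functions, such as *Hspb11* of intraflagellar transport and *Dnajb13* of sperm tails.

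CSN8 is a subunit of the COP9 signalosome, which removes NEDD8 from cullins and so regulates the ubiquitin ligases that mark proteins for the proteasome. When such degradation is disturbed, unfolded proteins can accumulate, HSF1 is released from inhibition by chaperones, and it then activates the genes of the heat shock response. Fat tissue also holds many mitochondria, brown fat above all, and these import and fold most of their proteins with chaperones of their own.

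The libraries are bulk RNA-seq from male mice after a fast of 4 h, with 1 library per mouse. In *Csn8* AKO mice, Cre under the adiponectin promoter deletes exons 4 to 6 of *Cops8*, the gene of CSN8, in adipocytes. Ctrl mice are littermates with floxed alleles and no Cre, so an effect of Cre alone was not measured. Subcutaneous white fat (sWAT) comes from mice aged 12 weeks (4 Ctrl and 4 *Csn8* AKO) and brown fat (BAT) from mice aged 4 weeks (5 Ctrl and 5 *Csn8* AKO). Tissue and age therefore cannot be told apart.

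Total counts per library in sWAT were 17991876, 22469969, 17856356 and 16370789 for Ctrl and 17876544, 15835721, 17386198 and 23109603 for *Csn8* AKO. In BAT they were 44065520, 60297430, 66719937, 53170161 and 56377966 for Ctrl and 53077853, 30099221, 27744949, 65359211 and 26658593 for *Csn8* AKO. Counts of ribosomal RNA genes made up 1.80% to 19.8% of Ctrl sWAT and 3.96% to 47.8% of *Csn8* AKO sWAT, against 0.863% to 10.1% of Ctrl BAT and 1.06% to 15.1% of *Csn8* AKO BAT. The counts on all other genes ranged from 11856463 to 18381045 in sWAT and from 25545779 to 66144406 in BAT. Libraries are listed by replicate number, Ctrl first. Levels of a gene between libraries are given as CPM, counts relative to the library total, scaled by the trimmed mean of M-values (TMM CPM) within a tissue. Levels of different genes are compared as TPM, counts per gene length relative to the total of protein-coding genes. TPM values and their sums carry no TMM scaling.

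*Cops8* (ENSMUSG00000034432, chr1:90602981-90613341, GRCm38) had TMM CPM values in sWAT of 33.9, 36.2, 34.8 and 35 in Ctrl and 33, 29.2, 30.7 and 36 in *Csn8* AKO. These groups overlap, and the log2 fold change was -0.12 (SE 0.11, adjusted p 0.623). In BAT the values were 36.5, 39, 40.1, 37.1 and 44.6 in Ctrl and 28.2, 29.7, 34.5, 31.4 and 36.9 in *Csn8* AKO. All but the last *Csn8* AKO library lie below every Ctrl library, with a log2 fold change of -0.30 (SE 0.09, adjusted p 0.0211). The count covers all 8 exons and every cell type of the tissue, so it does not check the deletion of exons 4 to 6 in adipocytes.

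RNA of cell type markers differed between the genotypes, which bears on any gene read in whole tissue. Macrophage markers were called higher for 8 of 12 in sWAT and 11 of 12 in BAT. Their summed TPM was 2330.4, 2136, 2517 and 3073 in Ctrl sWAT and 5960.3, 4568, 6721 and 4398 in *Csn8* AKO sWAT, with *C1qa* among the most abundant. In BAT the sums were 191, 182, 138, 205 and 164 in Ctrl and 849, 549.5, 735, 743 and 896 in *Csn8* AKO. Markers of fibroblasts and progenitors were called for 0 of 8 in sWAT by edgeR (5 higher at an unadjusted p under 0.05, 1 called by DESeq2 and 4 by limma voom) and for 8 of 8 higher in BAT, with *Col3a1* most abundant. Adipocyte markers were called lower for 2 of 10 in sWAT by edgeR (6 at an unadjusted p under 0.05, 4 called by DESeq2 and 5 by limma voom), with all 10 negative, and higher for 2 and lower for 1 of 10 in BAT, with *Fabp4* most abundant. Summed adipocyte TPM was 19759, 24629, 23878 and 24407 in Ctrl sWAT and 18134, 11388, 15975 and 18866 in *Csn8* AKO sWAT. In BAT it ran the other way, without overlap, at 9540.0, 9385, 10429, 10956 and 10342 in Ctrl and 12590.2, 12352, 12084, 11868 and 13198 in *Csn8* AKO. Under TMM, which these sums do not carry, the median log2 fold change of the adipocyte list in BAT was 0.14. Brown adipocyte markers were called lower for 2 of 8 in sWAT, and in BAT 1 of 10 was higher and 1 lower, with *Ucp1* most abundant. In bulk tissue, fewer cells of a type and less RNA per cell cannot be told apart, and the part of these cells in the chaperone values was not tested.

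Single libraries also stood apart in other tissue. T cell markers summed to 688, 21.7, 26.2 and 41 TPM in Ctrl sWAT and 83.7, 1094, 22.7 and 34.1 in *Csn8* AKO sWAT, and B cell markers, *Ighm* foremost, to 849, 304, 182 and 214 against 551, 2481, 503 and 659.7. Ctrl 1 and *Csn8* AKO 2 are thus the sWAT libraries richest in lymphocyte RNA. Skeletal muscle markers, *Acta1* foremost, summed to 572, 1431, 7569 and 983 TPM in Ctrl sWAT and 395, 243, 1056 and 4877 in *Csn8* AKO sWAT. In BAT these sums were 80.5, 78.2, 74.4, 89.1 and 58.8 in Ctrl and 298, 41.7, 32.8, 32.4 and 475 in *Csn8* AKO, highest in *Csn8* AKO 1 and 5. Comparisons are given below with and without the lymphocyte-rich sWAT libraries and the muscle-rich BAT libraries. The sWAT libraries richest in muscle RNA, Ctrl 3 and *Csn8* AKO 4, were left out singly but not together.

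In Ctrl tissue the chaperone genes together had a TPM of 6769, 6319, 6789.5 and 7045 in sWAT and 5069.9, 5797, 5767, 6026 and 6227 in BAT. Which tissue has the larger sum depends on the genes in the total, since with genes other than ribosomal RNA the means were 4264 in sWAT and 4658 in BAT. *Hsp90ab1* was the most abundant in both, at 1256 ± 103 TPM (SD, n = 4) in sWAT, 18.7% of the total of these genes, and 914 ± 119 (n = 5) in BAT, 15.8%. The next places in sWAT belong to *Hspa8* at 896 ± 149, *Bag1* at 371 ± 30.9, *Hspa9* at 309.9 ± 20 and *Hspd1* at 289 ± 19.8. In BAT the mitochondrial HSP70 gene *Hspa9* came next at 754 ± 38.1, followed by *Hspd1* at 509.7 ± 27.5 and *Hspa8* at 450.5 ± 137. The 10 genes assigned to mitochondria summed to 1013, 1024, 1012 and 1084 TPM in Ctrl sWAT and to 1865, 1974, 2055, 2019.7 and 2096 in Ctrl BAT. Every Ctrl BAT library lies above every Ctrl sWAT library, a difference of tissue, age or both that was described and not tested. *Dnajc22*, at 0.0659 TPM, was the lowest in Ctrl sWAT, followed by *Hspa1l* at 0.369, a gene named because it ranked there.

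**Figure D1:**
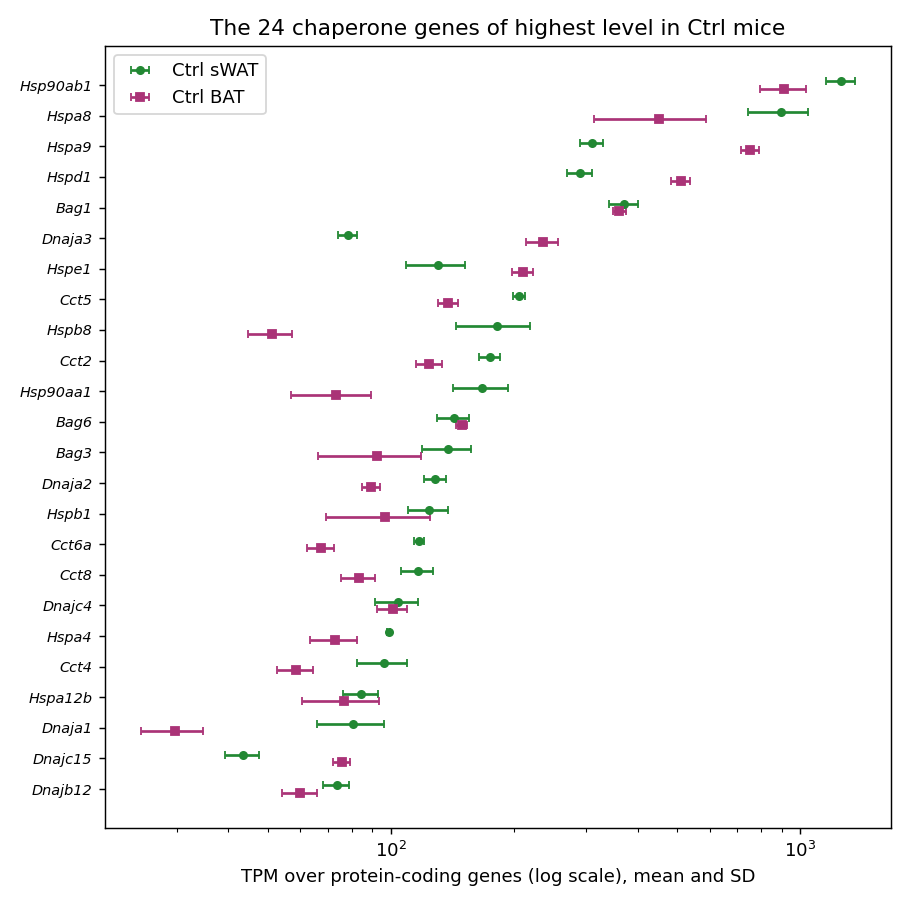
TPM of the 24 chaperone genes of highest level in Ctrl tissue on a log axis, with the mean and SD of 4 sWAT libraries (circles) and 5 BAT libraries (squares). *Hsp90ab1* leads in both at 1256 and 914 TPM, while *Hspa9* is at 309.9 TPM in sWAT and 754 in BAT.

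sWAT of *Csn8* AKO mice asks what loss of CSN8 in adipocytes does to chaperone transcripts of white fat in adult mice. If the tissue mounted a heat shock response, the inducible genes *Hspa1a*, *Hspa1b*, *Hsph1*, *Dnajb1* and *Hspb1* would lie above Ctrl. If mitochondria were lost, transcripts of the mitochondrial chaperones would lie below. RNA of cell type markers also differed between the genotypes, so values of whole tissue do not decide either case. Genes are called at an adjusted p under 0.05 with no limit on the size of the change.

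In sWAT 77 of the 79 genes could be tested, and edgeR called 0 of them higher in *Csn8* AKO and 4 lower (5.19%). Of all 18843 genes tested, 434 were higher (2.30%) and 566 lower (3.00%). At an unadjusted p under 0.05 there were 2 higher (2.60%, against 9.88% of all genes) and 17 lower (22.1%, against 10.5%). DESeq2 called 0 higher and 6 lower (7.79%, against 5.49% of all genes), and limma voom 0 and 12 (15.6%, against 5.72%). How far the share of lower genes stands above the background thus depends on the tool, and with 4 genes by edgeR it is no firm result about these genes as a class. The signs were less even: 27 log2 fold changes were positive and 50 negative, with a median of -0.14 against 0.03 for all genes. By edgeR the count of lower genes fell to 1 (1.30%) without *Csn8* AKO 3 or without Ctrl 4, against 0.909% and 0.979% of all genes. It fell to 2 (2.60%) without Ctrl 2 or without Ctrl 3, against 1.17% and 1.07%. It was 7 (9.09%, against 4.46% of all genes) without the lymphocyte-rich Ctrl 1 and *Csn8* AKO 2. All *Csn8* AKO libraries lay below every Ctrl library for 10 of the 79 genes (12.7%) and above for 1 (1.27%), against 7.00% and 5.03% of 23775 genes at the same minimum count.

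In BAT the question is the same for a fat that burns fuel in its mitochondria, in younger mice. BAT had far more differences between genotypes than sWAT, as well as deeper libraries and 1 more mouse per group. A count of chaperone genes there has to be read against that wide background.

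In BAT 78 of the 79 genes were tested, and edgeR called 13 higher (16.7%) and 17 lower (21.8%) in *Csn8* AKO. Of all 22345 genes tested, 3585 were higher (16.0%) and 3536 lower (15.8%). By these calls the share of higher genes is near the background and that of lower genes a little above it. At an unadjusted p under 0.05 there were 24 higher (30.8%, against 21.0% of all genes) and 19 lower (24.4%, against 20.7%). How far either share stands above the background thus depends on the threshold. A share near the background is not a result about these genes as a class. Which genes and roles changed, and in which direction, is described below. There were 46 positive and 32 negative log2 fold changes, with a median of 0.07 against 0.01 for all genes. DESeq2 called 18 higher and 18 lower (23.1% each, against 18.1% and 17.6% of all genes), and limma voom 19 and 19 (24.4% each, against 20.1% and 20.2%). Without *Csn8* AKO 1 the count of higher genes was 21 (26.9%, against 15.3% of all genes). Without the muscle-rich *Csn8* AKO 1 and 5 the counts were 14 and 14 (17.9% each, against 11.1% and 11.9%). All *Csn8* AKO libraries lay above every Ctrl library for 10 genes (12.7%) and below for 12 (15.2%), against 9.76% and 10.4% of 23775 genes at the same minimum count.

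In TPM the chaperone genes together stood at 6491, 7038, 7350.2, 6729 and 7395 in *Csn8* AKO BAT, each above every Ctrl BAT library. Abundant genes carry much of such a sum: *Hspa8* alone was at 450.5 TPM in Ctrl and 780.0 in *Csn8* AKO. These sums carry no TMM scaling. In TPM *Hsp90ab1* stood at 914 in Ctrl and 989 in *Csn8* AKO BAT, and *Hspa9* at 754 and 808, though neither was called under TMM. Whether the sums would stand apart under TMM was not tested. In *Csn8* AKO sWAT the sums were 7403, 8744, 6756 and 6385, which overlap those of Ctrl.

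Scaling matters for the split of calls in BAT. Under library size alone the median log2 fold change of all genes in BAT moved from 0.01 to 0.14, a shift of 0.13, and that of the chaperone genes from 0.07 to 0.20, so that they stayed 0.06 above the median of all genes. The calls became 22 higher and 7 lower, or 75.9% higher, against 13 and 17, or 43.3% higher, under TMM. Calls over all genes moved the same way, from 50.3% higher under TMM to 66.7% under library size alone. There 18.7% of all genes and 28.2% of the chaperone genes were called higher, and 9.34% and 8.97% lower. The share of lower chaperone genes is thus not above the background under that scaling. The log2 fold changes below are under TMM and are relative to the bulk of genes. In sWAT the same shift was -0.07, and the calls were 0 higher and 2 lower.

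**Figure D2:**
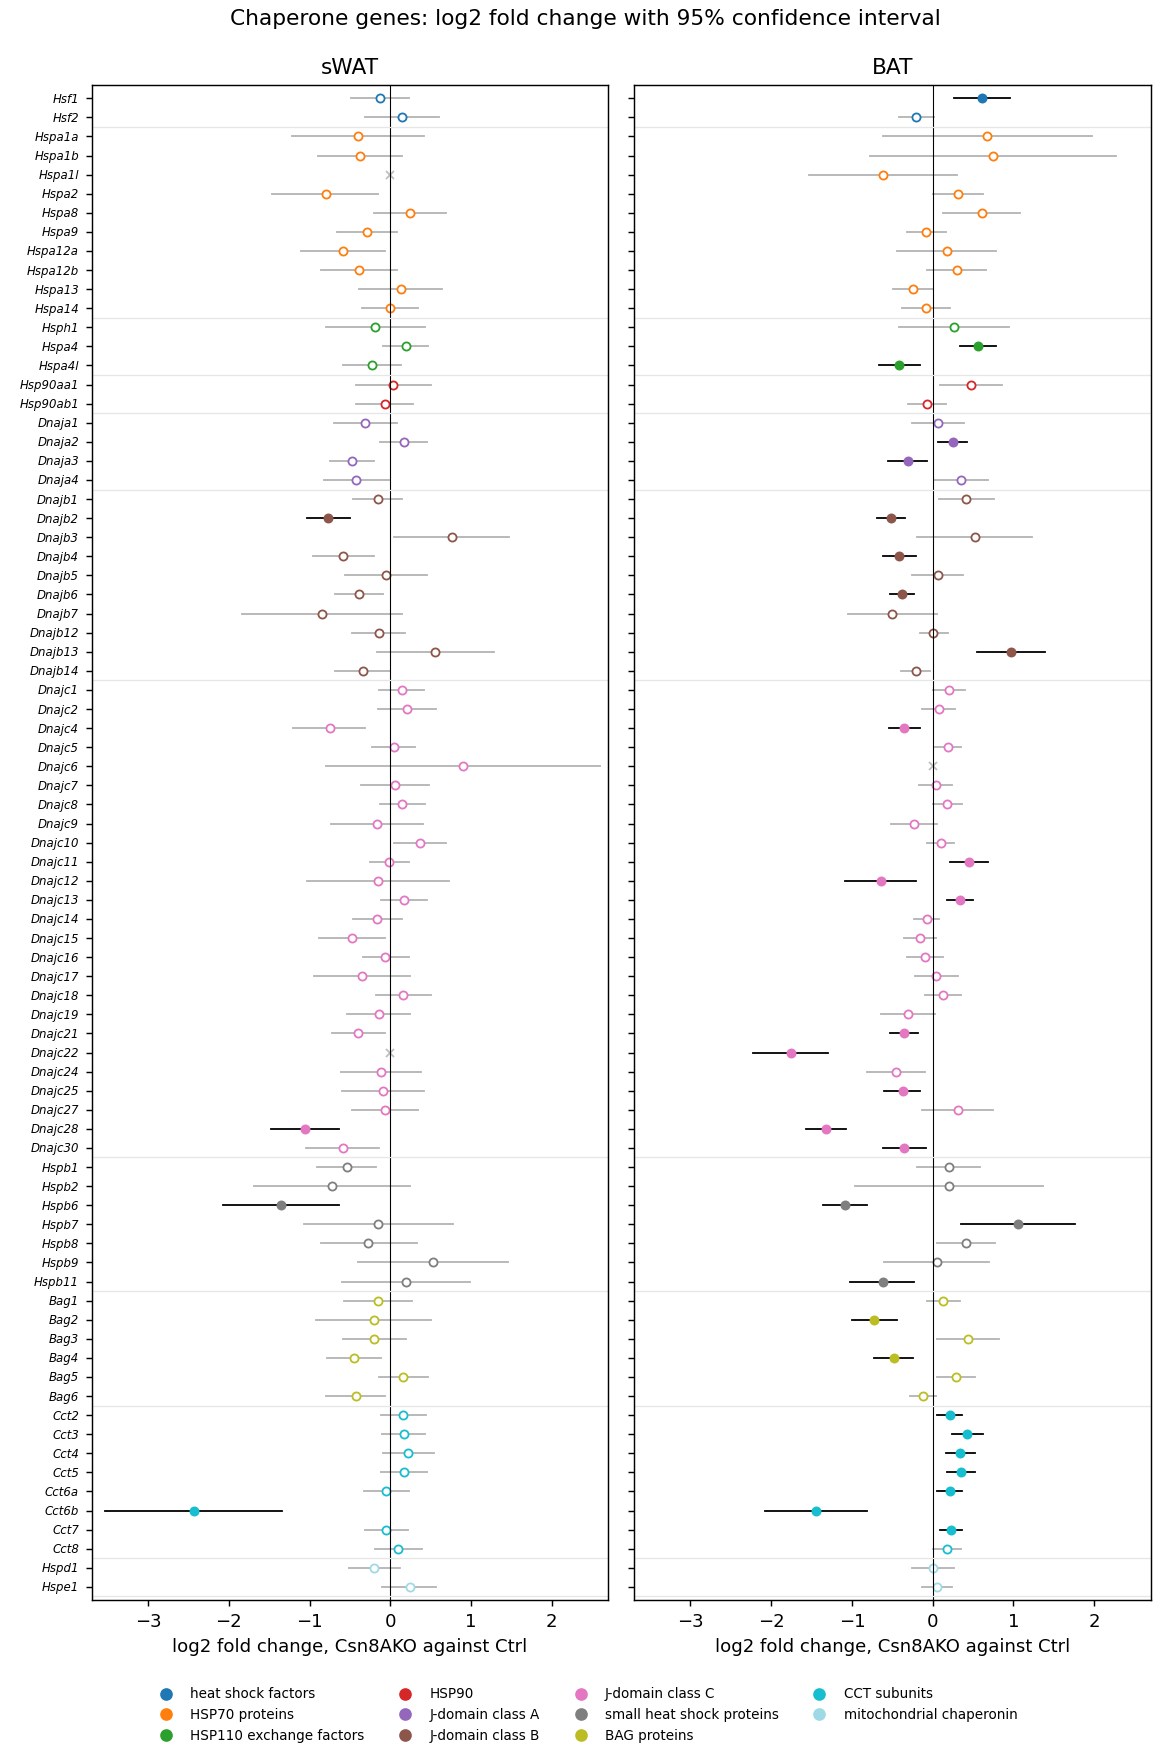
Log2 fold change of *Csn8* AKO against Ctrl with its 95% interval for each of the 79 chaperone genes, by role, in sWAT (left, 4 and 4 mice) and BAT (right, 5 and 5 mice). Filled points have an adjusted p under 0.05, open points do not, and a grey cross at 0 marks a gene not tested. In BAT 6 CCT subunits are called higher while *Dnajc22*, *Cct6b* and *Dnajc28* lie lowest at -1.76, -1.44 and -1.32.

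Heat shock factors bind trimeric heat shock elements and start transcription of chaperone genes. *Hsf1* (ENSMUSG00000022556, chr15:76477422-76501913) had TMM CPM values in BAT of 36.2, 42, 42.7, 43.4 and 48.2 in Ctrl and 53, 53.7, 58.6, 60.4 and 99.7 in *Csn8* AKO. Every *Csn8* AKO library lies above every Ctrl library, and *Csn8* AKO 5 is the highest by far. *Hsf1* rose in BAT, with a log2 fold change of 0.61 (SE 0.16, 95% interval 0.27 to 0.96, adjusted p 0.0113). In 20 of 20 alternative fits it was called, with log2 fold changes from 0.41 to 0.76 and adjusted p from 0.00194 to 0.0305. In sWAT the values were 45.8, 39.1, 42 and 37.5 in Ctrl and 29.1, 49.1, 37 and 34.8 in *Csn8* AKO, which overlap (log2 fold change -0.13, 95% interval -0.49 to 0.23). *Hsf2*, which can form trimers with HSF1, had values in BAT of 9.93, 12.1, 11.7, 12.3 and 10.9 in Ctrl and 9.87, 9.19, 10.8, 9.66 and 10.3 in *Csn8* AKO, which overlap (95% interval -0.41 to 0.02, adjusted p 0.15). HSF1 is controlled mostly as a protein, which RNA does not show.

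HSP70 proteins are the central chaperones that bind short hydrophobic stretches in cycles of ATP. In BAT edgeR called 0 of 10 HSP70 genes, with 2 higher at an unadjusted p under 0.05, and DESeq2 and limma voom each called 1 higher. *Hspa8* (ENSMUSG00000015656, chr9:40800984-40810087), the constitutive cytosolic form, had TMM CPM values in BAT of 314, 466, 690.4, 703 and 588 in Ctrl and 600.2, 909.7, 1099, 707 and 896 in *Csn8* AKO. Of the *Csn8* AKO libraries only *Csn8* AKO 1 lies inside the Ctrl range, and the highest Ctrl library is just under *Csn8* AKO 4. The log2 fold change was 0.61 (SE 0.22, 95% interval 0.13 to 1.08) at an adjusted p of 0.0505. This narrow miss was a call in 9 of 20 alternative fits, among them those without *Csn8* AKO 1, without Ctrl 3 and without Ctrl 4, and adjusted p ran from 0.00787 to 0.175 over the 20. In sWAT *Hspa8* was 767, 638, 784 and 873 in Ctrl and 1049.6, 1062, 815 and 694 in *Csn8* AKO, with groups that overlap (95% interval -0.20 to 0.69).

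The stress-inducible pair *Hspa1a* (ENSMUSG00000091971, chr17:34969190-34972156) and *Hspa1b* (ENSMUSG00000090877, chr17:34956436-34959238) is the usual mark of a heat shock response. *Hspa1b* had TMM CPM values in BAT of 3.15, 11.4, 1.74, 2.4 and 3.77 in Ctrl and 3.29, 2.64, 17.3, 5.06 and 9.83 in *Csn8* AKO. Ctrl 2 and *Csn8* AKO 3 and 5 stand high in a pattern that crosses the groups (log2 fold change 0.75, 95% interval -0.77 to 2.27, adjusted p 0.445). *Hspa1a* was at 1.16, 5.28, 1, 1.03 and 1.59 in Ctrl and 1.96, 1.54, 7.11, 2.26 and 3.51 in *Csn8* AKO BAT. The same libraries are high, and the 95% interval is -0.62 to 1.98 (adjusted p 0.421). Without Ctrl 2 *Hspa1a* was called at 1.44 with an adjusted p of 0.0253, the smallest over 20 alternatives, the largest being 0.825. In sWAT *Hspa1b* was 16.2, 20, 25.3 and 15.5 in Ctrl and 9.86, 14.6, 14.8 and 20.2 in *Csn8* AKO, which overlap, as did the values of *Hspa1a* (95% intervals -0.90 to 0.15 and -1.22 to 0.42). Of the 100-base windows in transcripts of the pair, 48.6% in *Hspa1a* and 49.9% in *Hspa1b* also occur in another gene, each in the other, and only uniquely aligned reads were counted, so both counts are partial.

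HSP110 proteins release ADP from HSP70 and so speed its cycle. *Hspa4* (ENSMUSG00000020361, chr11:53259814-53300457) had TMM CPM values in BAT of 98.6, 104, 126, 111 and 135 in Ctrl and 139, 166, 189.8, 170.4 and 185 in *Csn8* AKO. All *Csn8* AKO libraries are above all Ctrl libraries. *Hspa4* rose in BAT by a log2 fold change of 0.56 (SE 0.11, adjusted p 0.00116), a call kept in 20 of 20 alternatives with adjusted p from 2.48e-05 to 0.00487. In sWAT its 95% interval was -0.09 to 0.47. *Hspa4l*, its close relative, went the other way in BAT with values of 44.2, 44.7, 49.2, 35.9 and 48.3 in Ctrl and 27, 37, 39.9, 35.8 and 28 in *Csn8* AKO. The lowest Ctrl library, Ctrl 4, lies within the *Csn8* AKO range. *Hspa4l* fell at a log2 fold change of -0.41 (SE 0.12, adjusted p 0.0178), but without *Csn8* AKO 5 it was -0.34 and not called (adjusted p 0.0536), nor was it called with library size alone or without the muscle-rich *Csn8* AKO 1 and 5. *Hsph1*, the inducible member, was 20.9, 43.9, 42.2, 36.9 and 50.3 in Ctrl and 33.4, 53.8, 76.9, 28.8 and 42.4 in *Csn8* AKO BAT, with groups that overlap (95% interval -0.41 to 0.95). In sWAT the interval of *Hsph1* was -0.80 to 0.43.

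HSP90 proteins finish the folding of kinases, receptors and other clients. *Hsp90ab1*, the constitutive gene, had TMM CPM values in BAT of 668, 795, 746, 801 and 895 in Ctrl and 680.1, 883, 760.1, 684 and 717 in *Csn8* AKO. The groups overlap throughout, with a 95% interval of -0.30 to 0.16. In sWAT it was 736, 728, 738 and 799 in Ctrl and 718, 806, 719.8 and 608 in *Csn8* AKO, which overlap too (95% interval -0.43 to 0.28). The inducible *Hsp90aa1* was 57, 79.4, 86.9, 80.7 and 106 in Ctrl and 80.3, 126, 144, 96.2 and 123 in *Csn8* AKO BAT. *Csn8* AKO 2, 3 and 5 exceed every Ctrl library while *Csn8* AKO 1 and 4 do not, and the gene was not called (95% interval 0.09 to 0.86, adjusted p 0.0569). It was called without *Csn8* AKO 1 and without Ctrl 5 (log2 fold change 0.58 in both, adjusted p 0.0152 to 0.0229) and in 7 of 20 alternatives in all. In sWAT the interval of *Hsp90aa1* was -0.43 to 0.51.

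J-domain proteins bring clients to HSP70 and trigger its ATPase. *Dnajb2* (ENSMUSG00000026203, chr1:75236406-75245692), whose protein carries ubiquitin-interacting motifs and passes clients of HSP70 to the proteasome, had TMM CPM values in sWAT of 41.5, 42.9, 37.3 and 45.7 in Ctrl and 23.6, 24.4, 22.9 and 27.5 in *Csn8* AKO. Every *Csn8* AKO library is below every Ctrl library. *Dnajb2* fell in sWAT at a log2 fold change of -0.77 (SE 0.12, 95% interval -1.03 to -0.50, adjusted p 0.0077). Leaving out any single library kept this call, while library size alone and a term for the replicate number lost it (adjusted p 0.0511 to 0.272). In BAT the values were 54.1, 58.2, 52.8, 53.4 and 61.2 in Ctrl and 35.7, 38.9, 45, 35.1 and 41 in *Csn8* AKO. Again no library overlaps, and *Dnajb2* fell there too (log2 fold change -0.52, SE 0.08, adjusted p 0.000345), in 20 of 20 alternatives.

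*Dnajc28* (ENSMUSG00000039763, chr16:91614254-91619026), a little studied J-domain protein assigned to mitochondria, had TMM CPM values in BAT of 39.4, 38.2, 40, 39.4 and 36.3 in Ctrl and 16.6, 20.6, 14.3, 13.7 and 12.7 in *Csn8* AKO. The 2 groups are far apart. *Dnajc28* fell in BAT at a log2 fold change of -1.32 (SE 0.12, adjusted p 3.09e-06), in 20 of 20 alternatives. In sWAT it was 9.14, 11.2, 10.4 and 10.7 in Ctrl and 5.19, 3.71, 5.1 and 5.91 in *Csn8* AKO. There is no overlap, and it fell by the test as well (log2 fold change -1.06, SE 0.19, adjusted p 0.0142). The sWAT call was lost narrowly without *Csn8* AKO 3 and without Ctrl 4 (adjusted p 0.0506 to 0.0509), and with library size alone or a replicate term (0.0749 to 0.13).

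*Dnajc22* (ENSMUSG00000038009, chr15:99093170-99104737) had the largest drop of these genes in BAT, with TMM CPM values of 5.84, 4.25, 4.49, 2.84 and 4.15 in Ctrl and 1.45, 1.7, 1.03, 1.3 and 0.869 in *Csn8* AKO. No library overlaps. *Dnajc22* fell at a log2 fold change of -1.76 (SE 0.22, adjusted p 4.68e-05), in 20 of 20 alternatives. In sWAT it was close to absent, at 0.0905, 0, 0 and 0 in Ctrl and 0.0926, 0.0905, 0 and 0 in *Csn8* AKO, and was not tested.

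*Dnajb4*, a partner of HSC70, had TMM CPM values in BAT of 35, 39.7, 31.1, 34 and 38.4 in Ctrl and 29, 27.2, 29.7, 23.8 and 24.3 in *Csn8* AKO. The groups do not overlap, and *Dnajb4* fell (log2 fold change -0.41, SE 0.09, adjusted p 0.00372). Library size alone removed the call (adjusted p 0.0956). In sWAT *Dnajb4* was not called (log2 fold change -0.58, adjusted p 0.0813), though it was called without Ctrl 1 (adjusted p 0.0452) and in 4 other alternatives. *Dnajb6*, which holds back aggregation of polyglutamine proteins and was chosen after its values were seen, was 66.1, 60, 66.7, 64.7 and 61.2 in Ctrl and 46, 50.8, 52.4, 46.9 and 49.1 in *Csn8* AKO BAT. The groups stand apart, and *Dnajb6* fell (log2 fold change -0.38, SE 0.07, adjusted p 0.000791), a call that library size alone removed (adjusted p 0.0664). *Dnajc12*, at 4.03, 4.12, 3.32, 2.84 and 4.02 in Ctrl and 3.29, 2.13, 2.03, 2.65 and 1.47 in *Csn8* AKO BAT, overlaps at *Csn8* AKO 1. It fell at a log2 fold change of -0.64 (SE 0.20, adjusted p 0.0264), a call lost without *Csn8* AKO 3, *Csn8* AKO 5, Ctrl 1, Ctrl 2 or Ctrl 5 (adjusted p 0.0523 to 0.0635), with library size alone and with all 4 groups in one fit.

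*Dnajb13* (ENSMUSG00000030708, chr7:100501716-100514960) had TMM CPM values in BAT of 2.25, 2.74, 2.16, 3.14 and 3.17 in Ctrl and 7.22, 4.26, 5.77, 3.67 and 5.55 in *Csn8* AKO. All *Csn8* AKO libraries are above all Ctrl libraries, and *Dnajb13* rose at a log2 fold change of 0.97 (SE 0.20, adjusted p 0.00173). On the opposite strand, *Ucp2*, chosen after its values were seen, overlaps 305 bases of its exons, 11.2% of them. *Ucp2* had 107581 counts over all libraries against 3389 for *Dnajb13*, and it rose in BAT as well (log2 fold change 1.19, adjusted p 5.05e-06). Only unambiguous reads were counted, whether the strand was used is not stated, and the part of *Ucp2* in the count of *Dnajb13* was not tested.

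*Dnajc13*, of endosomes, had TMM CPM values of 93.7 ± 5.09 (SD, n = 5) in Ctrl and 106, 132, 120.3, 116 and 119 in *Csn8* AKO BAT. The groups do not overlap, and *Dnajc13* rose at a log2 fold change of 0.34 (SE 0.08, adjusted p 0.0038), in 20 of 20 alternatives. *Dnaja2*, a cytosolic partner of HSC70 chosen after its values were seen, was 74.5, 70.5, 80.7, 74.6 and 79.7 in Ctrl and 74.1, 97.8, 94.8, 90.8 and 95 in *Csn8* AKO. All but *Csn8* AKO 1 lie above every Ctrl library (log2 fold change 0.25, adjusted p 0.0337), but the call was lost without any 1 of *Csn8* AKO 2, 3, 4 and 5 and Ctrl 1, 2 and 4 (adjusted p 0.0549 to 0.0901), and 11 of 20 alternatives kept it. *Dnajb1*, the inducible partner of HSP70, was 22.9, 30.4, 22.9, 22.6 and 32.9 in Ctrl and 30.3, 29.8, 48.4, 29.5 and 38.9 in *Csn8* AKO. Only *Csn8* AKO 3 and 5 exceed all Ctrl libraries, and it was not called (95% interval 0.08 to 0.76, adjusted p 0.0577), though it was called in 8 of 20 alternatives, including those without *Csn8* AKO 1, *Csn8* AKO 2, *Csn8* AKO 4 or Ctrl 5 (adjusted p 0.0266 to 0.0492). For *Dnaja1* the 95% interval in BAT was -0.25 to 0.39, and in sWAT -0.70 to 0.09. In sWAT the interval of *Dnajb1* was -0.46 to 0.15.

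The counts of the J-domain classes in BAT are read against 16.0% of all genes called higher and 15.8% called lower. In class A, 1 of 4 was higher and 1 lower, in class B 1 of 10 higher and 3 lower, and in class C 2 of 24 higher and 7 lower. With so few genes these counts are not a result about the classes. The remaining lower genes of class C were *Dnajc4* of mitochondria (log2 fold change -0.35, adjusted p 0.00991) and *Dnajc21* (-0.35, 0.00434), *Dnajc25* (-0.37, 0.0151) and *Dnajc30* (-0.35, 0.0459), the last 3 chosen after their values were seen. Library size alone removed the calls of all 4, with adjusted p values of 0.141 for *Dnajc4*, 0.129 for *Dnajc21*, 0.254 for *Dnajc25* and 0.415 for *Dnajc30*. All 4 groups in one fit also removed those of *Dnajc4*, *Dnajc25* and *Dnajc30*. *Dnajc30* shares 26.2% of its exon bases with *Bud23*, and its call was kept in only 7 of 20 alternatives. The call was lost without any 1 of *Csn8* AKO 1, 2, 4 and 5 and Ctrl 2, 3, 4 and 5 (adjusted p 0.0604 to 0.098). Leaving out both muscle-rich libraries also removed it (log2 fold change -0.35, adjusted p 0.127). In sWAT edgeR called 0 of 4 in class A (2 lower at an unadjusted p under 0.05, 1 called lower by DESeq2 and 2 by limma voom).

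Small heat shock proteins hold unfolding proteins in large oligomers until HSP70 takes over. *Hspb6* (ENSMUSG00000036854, chr7:30552178-30555443), best known from muscle, had TMM CPM values in sWAT of 12.4, 28, 19.1 and 15.4 in Ctrl and 5.6, 4.53, 8.76 and 10.6 in *Csn8* AKO. The groups do not overlap. *Hspb6* fell in sWAT at a log2 fold change of -1.35 (SE 0.32, adjusted p 0.041), but the call was lost without any 1 of *Csn8* AKO 1, 2 and 3 and Ctrl 2, 3 and 4 (adjusted p 0.0535 to 0.118) and with a replicate term (0.109). In BAT it was 12.3, 12.3, 11.8, 13 and 14.4 in Ctrl and 7.62, 5.68, 4.74, 5.72 and 6.25 in *Csn8* AKO. No library overlaps, and *Hspb6* fell in 20 of 20 alternatives (log2 fold change -1.08, SE 0.13, adjusted p 3.11e-05). Summed skeletal muscle markers were lower in *Csn8* AKO 1 and 2 than in any Ctrl sWAT library but highest in Ctrl 3. In BAT they were above every Ctrl library in *Csn8* AKO 1 and 5 and below every Ctrl library in *Csn8* AKO 2, 3 and 4, and their part was not tested.

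*Hspb1*, the inducible HSP27 gene, had TMM CPM values in sWAT of 19.9, 30.2, 25.3 and 27.4 in Ctrl and 15.9, 21, 15.9 and 17.7 in *Csn8* AKO. Only *Csn8* AKO 2 is inside the Ctrl range, and the gene was not called (log2 fold change -0.54, 95% interval -0.91 to -0.18, adjusted p 0.0918). It was called in 3 of 18 alternatives: by limma voom (-0.63, adjusted p 0.0183), without *Csn8* AKO 2 (-0.64, 0.0379) and without the lymphocyte-rich libraries (-0.74, 0.00994). In BAT it was 19.9, 22.8, 33.8, 38.6 and 26.9 in Ctrl and 26.1, 42.7, 32.2, 31.5 and 31.4 in *Csn8* AKO, which overlap (95% interval -0.19 to 0.59). *Hspb8*, the most abundant small heat shock protein gene in Ctrl sWAT at 181 ± 36.9 TPM, had intervals of -0.86 to 0.33 in sWAT and 0.06 to 0.77 in BAT (adjusted p 0.0748), and in BAT was called in 3 of 20 alternatives: without *Csn8* AKO 1 (log2 fold change 0.55, adjusted p 0.00402), without the muscle-rich *Csn8* AKO 1 and 5 (0.58, 0.00839) and with library size alone (0.52, 0.014). *Hspb7*, chosen after its values were seen, was 0.465, 0.813, 0.565, 0.664 and 0.505 in Ctrl and 1.03, 0.749, 0.653, 1.45 and 2.41 in *Csn8* AKO BAT. The groups overlap at *Csn8* AKO 2 and 3, and the muscle-rich *Csn8* AKO 5 is highest (log2 fold change 1.06, SE 0.33, adjusted p 0.0251). Its call was lost without any 1 of *Csn8* AKO 4 and 5 and Ctrl 1, 3 and 5 (adjusted p 0.052 to 0.0775), without both muscle-rich libraries *Csn8* AKO 1 and 5 (log2 fold change 0.70, adjusted p 0.138) and with a replicate term (0.0578). *Hspb11* was 5.33, 4.07, 4.65, 3.56 and 3.59 in Ctrl and 3.73, 3.07, 2.3, 2.39 and 2.17 in *Csn8* AKO BAT. It overlaps at *Csn8* AKO 1 and fell at a log2 fold change of -0.62 (SE 0.18, adjusted p 0.0188), with the call lost without *Csn8* AKO 4 or 5 (adjusted p 0.0503 to 0.055), with library size alone and with all 4 groups in one fit.

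BAG proteins exchange the nucleotide of HSP70 and link it to degradation or survival pathways. *Bag2* (ENSMUSG00000042215, chr1:33745484-33757795), which inhibits the ubiquitin ligase CHIP, had TMM CPM values in BAT of 8.79, 6.98, 7.23, 6.53 and 7.55 in Ctrl and 4.47, 4.57, 5.43, 3.87 and 4.24 in *Csn8* AKO. The groups do not overlap, and *Bag2* fell at a log2 fold change of -0.72 (SE 0.13, adjusted p 0.000883), in 20 of 20 alternatives. *Bag4* was 27.5, 26.7, 19.6, 19.6 and 22.5 in Ctrl and 16.5, 18.4, 15.6, 17.2 and 15.5 in *Csn8* AKO BAT. It fell without overlap (log2 fold change -0.48, SE 0.11, adjusted p 0.00477), again in 20 of 20. *Bag3*, an HSF1 target that serves selective autophagy, was 44.8, 74.6, 55, 71.1 and 89.6 in Ctrl and 71.1, 91.6, 111, 84.4 and 97.8 in *Csn8* AKO BAT. *Csn8* AKO 2, 3 and 5 exceed every Ctrl library and *Csn8* AKO 1 and 4 do not, and it was not called (95% interval 0.06 to 0.82, adjusted p 0.072). It was called without *Csn8* AKO 1 and without Ctrl 5 (adjusted p 0.0181 to 0.0424), and in 6 of 20 alternatives in all. In sWAT the interval of *Bag3* was -0.58 to 0.19. In sWAT edgeR called 0 of 6 BAG genes (2 lower at an unadjusted p under 0.05, 0 called by DESeq2 and 1 lower by limma voom). *Bag1*, the most abundant, had a 95% interval in BAT of -0.07 to 0.34.

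CCT is the cytosolic chaperonin, a double ring of 8 subunits that folds actin, tubulin and WD40 proteins, whose genes are *Cct2* to *Cct8* and *Tcp1*. In BAT 6 of 8 CCT genes with that prefix were called higher and 1 lower, where edgeR called 16.0% and 15.8% of all genes. DESeq2 gave the same counts, where it called 18.1% and 17.6% of all genes. So did limma voom, where it called 20.1% and 20.2%. Leaving aside *Cct6b*, a form of subunit 6 found mostly in testis, all 7 had positive log2 fold changes in BAT, between 0.18 and 0.43 with a median of 0.23.

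*Cct3* (ENSMUSG00000001416, chr3:88297116-88321767) had TMM CPM values in BAT of 64.4, 76, 73.2, 66.1 and 86.9 in Ctrl and 91.9, 95.3, 105, 95.1 and 106 in *Csn8* AKO. It rose without overlap at a log2 fold change of 0.43 (SE 0.09, adjusted p 0.00224). *Cct5* (ENSMUSG00000022234, chr15:31590800-31601804), the most abundant subunit gene, was 107, 116, 110.4, 103 and 108 in Ctrl and 138, 160.0, 130.1, 136 and 128 in *Csn8* AKO. It rose without overlap as well (log2 fold change 0.35, SE 0.08, adjusted p 0.00402). *Cct4* (ENSMUSG00000007739, chr11:22990519-23003780) was 77.2, 77.3, 66.7, 67.5 and 62 in Ctrl and 80.9, 89.7, 90.6, 94.4 and 89.6 in *Csn8* AKO. Its groups stand apart at a log2 fold change of 0.34 (SE 0.08, adjusted p 0.0048). *Cct3*, *Cct4* and *Cct5* were called in 20 of 20 alternatives each.

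The other CCT calls were less stable. *Cct2* (ENSMUSG00000034024, chr10:117051001-117063814) had TMM CPM values in BAT of 84.8, 93.8, 89.8, 86.8 and 97.2 in Ctrl and 99.1 to 116 (mean 105, SD 6.62, n = 5) in *Csn8* AKO. It rose without overlap (log2 fold change 0.22, adjusted p 0.0336), but the call was lost without any 1 of *Csn8* AKO 2 and 5 and Ctrl 1, 2, 3 and 4 (adjusted p 0.0518 to 0.0798) and without the muscle-rich libraries (log2 fold change 0.23, adjusted p 0.0861), and 11 of 20 alternatives kept it. *Cct6a*, *Cct7* and *Cct8* were chosen after their values were seen. *Cct6a* rose (log2 fold change 0.21, adjusted p 0.0434) but not without any 1 of *Csn8* AKO 2, 3 and 4 and Ctrl 1, 3 and 4 (adjusted p 0.0527 to 0.101), with 11 of 20 alternatives keeping the call, and *Cct7* rose (0.23, adjusted p 0.0158) in 18 of 20 alternatives. *Cct8* was 74.3, 81, 71.2, 63.9 and 77.5 in Ctrl and 77.8, 89.6, 88.6, 79.4 and 81.5 in *Csn8* AKO. It overlaps and was not called (95% interval 0.01 to 0.35, adjusted p 0.102). *Tcp1*, subunit 1, lies outside the symbols chosen and was 109.9, 110.5, 99.8, 87.9 and 103 in Ctrl and 115 to 122 (mean 119.7, SD 2.6, n = 5) in *Csn8* AKO. It rose without overlap (log2 fold change 0.23, adjusted p 0.0346), a call lost without any 1 of *Csn8* AKO 3 and 5 and Ctrl 3, 4 and 5 (adjusted p 0.0557 to 0.0808) and without the muscle-rich libraries (log2 fold change 0.21, adjusted p 0.129), and kept in 12 of 20 alternatives.

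Per length, the CCT genes together had a TPM in BAT of 528, 604, 524, 537 and 581 in Ctrl and 775, 726, 765, 766 and 789 in *Csn8* AKO. These sums do not overlap. In sWAT they were 871, 768, 806 and 849 in Ctrl and 1075, 1214, 926 and 823 in *Csn8* AKO, which overlap, and edgeR called 0 of 7 genes other than *Cct6b* (0 at an unadjusted p under 0.05, 0 by DESeq2 and 0 by limma voom). The median log2 fold change of all 8 was 0.13 in sWAT and 0.22 in BAT. With library size alone the median in BAT was 0.35, with 7 called higher and 1 lower, where 18.7% and 9.34% of all genes were called. Fibroblasts, macrophages and other cells that were more marked in *Csn8* AKO BAT also express CCT, and their part was not tested.

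*Cct6b* (ENSMUSG00000020698, chr11:82719250-82764321) behaved unlike the rest, and it was chosen after its values were seen. Its level is low, at 14 to 25 counts per Ctrl sWAT library and 1 to 6 per *Csn8* AKO sWAT library. Its TMM CPM values in sWAT were 0.86, 1.27, 1.18 and 0.727 in Ctrl and 0.278, 0.0905, 0.276 and 0.0748 in *Csn8* AKO. They do not overlap, and it fell at a log2 fold change of -2.43 (SE 0.49, adjusted p 0.0218), a call lost without any 1 of *Csn8* AKO 3 and Ctrl 2, 3 and 4 (adjusted p 0.0517 to 0.08) and with a replicate term (0.0786). DESeq2 did not call it either, so that 12 of 18 alternatives did. In BAT it was 1.84, 1.22, 0.839, 0.812 and 1.26 in Ctrl and 0.405, 0.237, 0.584, 0.534 and 0.368 in *Csn8* AKO. It fell there without overlap too (log2 fold change -1.44, SE 0.30, adjusted p 0.00198), in 19 of 20 alternatives.

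**Figure D3:**
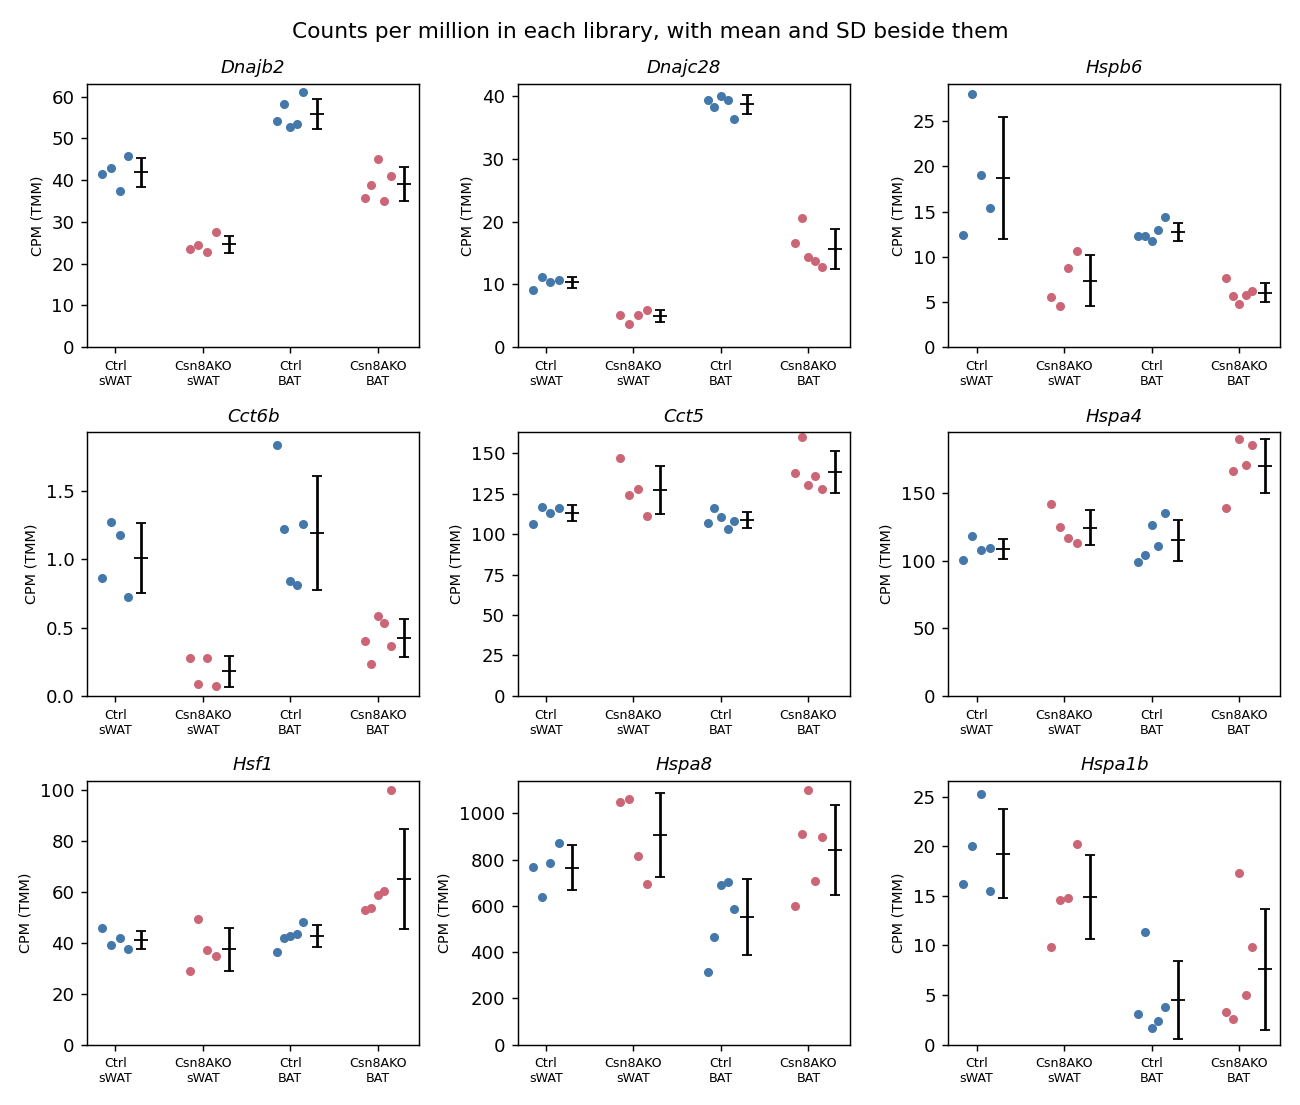
TMM CPM in each library, with the mean and SD, for *Dnajb2*, *Dnajc28*, *Hspb6*, *Cct6b*, *Cct5*, *Hspa4*, *Hsf1*, *Hspa8* and *Hspa1b* in Ctrl and *Csn8* AKO sWAT (4 and 4) and BAT (5 and 5). *Dnajc28* falls from 36.3 or more in Ctrl BAT to 20.6 or less in *Csn8* AKO BAT, and *Hspa1b* overlaps in both tissues.

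In mitochondria HSPA9 pulls proteins through the inner membrane and HSPD1 with HSPE1 folds them. *Hspa9* had TMM CPM values in BAT of 883, 889, 989, 925 and 957 in Ctrl and 780.1, 1122, 824, 856 and 804 in *Csn8* AKO. All but *Csn8* AKO 2 are below every Ctrl library and *Csn8* AKO 2 is above, so the groups overlap (95% interval -0.32 to 0.16). *Hspd1* (ENSMUSG00000025980, chr1:55077835-55088243) was 363, 379, 412, 367 and 403 in Ctrl and 355, 519.7, 370.3, 334 and 349 in *Csn8* AKO. The same library is highest, and the interval is -0.25 to 0.26. *Hspe1*, at 87.5, 84.1, 92.2, 82.7 and 96.4 in Ctrl and 82.6, 96.6, 91.6, 83.3 and 107 in *Csn8* AKO, overlaps as well (95% interval -0.13 to 0.24). In sWAT *Hspa9* was 231, 304, 251 and 284 in Ctrl and 234, 168, 231 and 244 in *Csn8* AKO, with an interval of -0.66 to 0.08. The sWAT intervals of *Hspd1* and *Hspe1* were -0.51 to 0.12 and -0.10 to 0.57.

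J-domain genes assigned to mitochondria were mixed in BAT. *Dnaja3*, the partner of HSPA9, had TMM CPM values of 237, 241, 301, 263 and 271 in Ctrl and 178, 269, 201, 202 and 208 in *Csn8* AKO BAT. All but *Csn8* AKO 2 lie below every Ctrl library, and *Dnaja3* was called lower (log2 fold change -0.31, SE 0.11, adjusted p 0.0471). That call held in only 7 of 20 alternatives and was lost without any 1 of *Csn8* AKO 1, 3, 4 and 5 and Ctrl 2, 3, 4 and 5 (adjusted p 0.0524 to 0.117). It was also lost without both muscle-rich libraries (log2 fold change -0.23, adjusted p 0.223) and with library size alone (-0.20, 0.168). In sWAT *Dnaja3* was 56.5, 66.9, 64.3 and 57.2 in Ctrl and 49.8, 38.2, 42.5 and 45.7 in *Csn8* AKO. Those do not overlap, but edgeR did not call the gene (log2 fold change -0.47, adjusted p 0.0578), while 4 of 18 alternatives did, among them DESeq2 (adjusted p 0.0194) and limma voom (0.0209). *Dnajc4* likewise did not overlap in sWAT, at 21.6, 32, 27.2 and 23 in Ctrl and 13.7, 11, 18.5 and 18.4 in *Csn8* AKO, and was not called by edgeR (log2 fold change -0.75, adjusted p 0.0599) but was in 5 of 18 alternatives, among them DESeq2 (0.0163) and limma voom (0.0405). *Dnajc11* (ENSMUSG00000039768, chr4:151933691-151982137), which joins the complexes that shape cristae, was 91.6, 96.9, 133, 116 and 124 in Ctrl and 129, 161, 165, 152 and 161 in *Csn8* AKO BAT. Only *Csn8* AKO 1 is inside the Ctrl range, and *Dnajc11* rose in BAT (log2 fold change 0.45, SE 0.11, adjusted p 0.00649), in 20 of 20 alternatives, whereas in sWAT its interval was -0.25 to 0.23.

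Of the 10 genes assigned to mitochondria, 1 was higher and 4 lower in BAT, where 16.0% and 15.8% of all genes were called, with a median log2 fold change of -0.24. In sWAT edgeR called 1 lower, where 3.00% of all genes were, against 3 by DESeq2, 3 by limma voom and 5 at an unadjusted p under 0.05. The sWAT median was -0.38, and 9 of 10 were negative. With library size alone these medians were -0.10 and -0.47, and in BAT only 1 stayed lower, where 9.34% of all genes were called lower. Their summed TPM was 1035, 1001, 938 and 934 in *Csn8* AKO sWAT and 2060.0, 2362, 2036, 2049 and 2156 in *Csn8* AKO BAT, which overlaps Ctrl in both. Brown adipocyte markers summed to 747, 950.3, 587 and 763 TPM in Ctrl sWAT and to 309, 137, 137 and 218 in *Csn8* AKO sWAT. The number of adipocytes and of mitochondria per adipocyte was not measured. The 8 genes assigned to the endoplasmic reticulum, for comparison, had a median of -0.08 in BAT with 0 higher and 1 lower by edgeR (1 and 2 at an unadjusted p under 0.05, 0 and 1 by DESeq2, 1 and 1 by limma voom), and -0.07 in sWAT. With library size alone the BAT median was 0.04 and 0 were called, where 18.7% of all genes were called higher and 9.34% lower.

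A list of 20 other genes of mitochondrial protein quality control gave 0 higher and 6 lower (30%) in BAT by edgeR. Of all genes, 16.0% and 15.8% were called there. The counts were 0 and 7 at an unadjusted p under 0.05, 0 and 6 by DESeq2, and 0 and 8 by limma voom. *Clpb*, which dissolves aggregates in the intermembrane space, had TMM CPM values in BAT of 181, 174, 174, 174 and 183 in Ctrl and 112, 143, 112, 118 and 106 in *Csn8* AKO. It fell without overlap (log2 fold change -0.59, adjusted p 0.000168). *Trap1*, the mitochondrial HSP90, was 313, 331, 332, 313 and 314 in Ctrl and 230.3, 258, 204, 207 and 209.6 in *Csn8* AKO BAT, and fell (log2 fold change -0.53, adjusted p 0.000341). In sWAT *Clpb* was 59.4, 65, 55.9 and 65.8 in Ctrl and 35.7, 30, 39.2 and 42.8 in *Csn8* AKO. It fell without overlap (log2 fold change -0.74, adjusted p 0.0149), and the call was lost without *Csn8* AKO 3, Ctrl 2 or Ctrl 4 (adjusted p 0.0506 to 0.0588), with library size alone (0.217) and with a replicate term (0.0749). *Trap1* was 125, 174, 136 and 146 in Ctrl and 97, 77.7, 95.8 and 102 in *Csn8* AKO sWAT, also without overlap. It fell (log2 fold change -0.64, adjusted p 0.0347), and the call was lost without any 1 of *Csn8* AKO 1 and 3 and Ctrl 2, 3 and 4 (adjusted p 0.0735 to 0.103), with library size alone (0.329) and with a replicate term (0.147). The median of the list was -0.26 in sWAT and -0.08 in BAT, but 0.03 in BAT with library size alone, where 1 gene was called higher and 3 lower. Under that scaling 18.7% and 9.34% of all genes were called, and the median of all genes was 0.14. The sign and the counts of this list in BAT thus depend on scaling.

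Genes known as HSF1 targets give a wider view of the heat shock response. Of 20 such genes, many of them described above, 0 were higher and 1 lower in sWAT by edgeR (0 and 3 at an unadjusted p under 0.05, 0 and 2 by DESeq2, 0 and 4 by limma voom), with a median log2 fold change of -0.19. In BAT 2 were higher and 2 lower by edgeR (6 and 2 at an unadjusted p under 0.05, 6 and 2 by DESeq2, 3 and 2 by limma voom), where 16.0% and 15.8% of all genes were called, with a median of 0.15 and 16 of 20 positive. With library size alone 6 were higher and 0 lower in BAT. The summed TPM of these targets was 2237, 2789, 2796, 3006 and 3072 in Ctrl BAT and 3226, 3609, 3898, 3204 and 3712 in *Csn8* AKO BAT, without overlap. These sums carry no TMM scaling, and *Hspa8* alone was at 450.5 TPM in Ctrl and 780.0 in *Csn8* AKO BAT. Whether they would stand apart under TMM was not tested. *Cryab*, a small heat shock protein of lens and muscle, was 6.75, 5.79, 5.57, 4.19 and 6.47 TMM CPM in Ctrl and 9.14, 7.84, 8.32, 6.57 and 10.2 in *Csn8* AKO BAT. Its groups do not overlap, and it rose (log2 fold change 0.55, adjusted p 0.0146), though it was not called without the muscle-rich *Csn8* AKO 1 and 5 or with all 4 groups in one fit (adjusted p 0.0652 to 0.12). In sWAT *Cryab* was 44.8, 89.9, 47 and 50.7 in Ctrl and 32.5, 19.3, 24.1 and 26.9 in *Csn8* AKO. There it fell without overlap (log2 fold change -1.18, SE 0.25, adjusted p 0.0268), a call lost without *Csn8* AKO 3 or Ctrl 4 (adjusted p 0.0587 to 0.0912) and with a replicate term (0.108).

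Among 38 other chaperones and co-chaperones, 4 were higher (10.5%) and 2 lower (5.26%) in BAT by edgeR. These shares lie below the 16.0% and 15.8% of all genes called there. In sWAT 0 were higher and 1 lower by edgeR (0 and 3 at an unadjusted p under 0.05, 0 and 1 by both DESeq2 and limma voom). Of all genes, edgeR called 2.30% and 3.00% there. Beside *Tcp1* and *Cryab*, *Hspbp1* (log2 fold change 0.41, adjusted p 0.0102) and *Fkbp4* (0.22, 0.0462) rose in BAT. *Hscb*, which serves iron-sulfur clusters (-0.64, 0.000854), and *Sil1* (-0.32, 0.0285) fell. The call of *Fkbp4* was lost without any 1 of *Csn8* AKO 1, 2, 3 and 4 and Ctrl 2, 4 and 5 (adjusted p 0.0565 to 0.109). It was also lost without both muscle-rich libraries (log2 fold change 0.25, adjusted p 0.0728), and kept in 9 of 20 alternatives. The call of *Sil1* was lost without any 1 of *Csn8* AKO 3 and 4 and Ctrl 1 and 4 (adjusted p 0.0525 to 0.0823) and with library size alone (0.417). The median of the list was 0.09 in BAT and -0.05 in sWAT. With library size alone 7 were higher and 1 lower in BAT, with a median of 0.21. Under that scaling 18.7% and 9.34% of all genes were called, and the median of all genes was 0.14.

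The 4 genes left out by the selection report on the unfolded protein response of the endoplasmic reticulum. *Dnajb9* had TMM CPM values in BAT of 17.3, 19.6, 23.1, 24.7 and 29.4 in Ctrl and 26.1, 35.7, 38.7, 35.1 and 34.7 in *Csn8* AKO. All but *Csn8* AKO 1 exceed every Ctrl library, and it rose (log2 fold change 0.58, adjusted p 0.00615), in all alternatives but the single fit of all 4 groups (0.56, adjusted p 0.0612). *Hspa5* was 206, 241, 255, 249 and 246 in Ctrl and 224, 289, 327, 288 and 284 in *Csn8* AKO BAT. Here too only *Csn8* AKO 1 is inside the Ctrl range, but the gene was not called (log2 fold change 0.24, adjusted p 0.0964), though it was called without *Csn8* AKO 1 (adjusted p 0.019) and in 3 other alternatives. *Dnajb11* rose (0.28, adjusted p 0.0367), a call lost without any 1 of *Csn8* AKO 3, 4 and 5 and Ctrl 1, 2, 4 and 5 (adjusted p 0.054 to 0.0865) and kept in 11 of 20 alternatives, and *Dnajc3* was at 0.04. In sWAT edgeR called 0 of 4 (1 higher at an unadjusted p under 0.05, 0 by DESeq2 and 0 by limma voom), with a median of 0.31.

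The interaction of genotype and tissue over 18 libraries asks whether a gene differs more in one fat than in the other. Of 78 chaperone genes tested, edgeR called 0 in either direction. Of all 22509 genes, it called 362 higher (1.61%) and 170 lower (0.755%) in BAT relative to sWAT. At an unadjusted p under 0.05, 11 chaperone genes were higher (14.1%, against 8.65% of all genes) and 2 lower (2.56%, against 6.62%). DESeq2 called 2 chaperone genes higher (2.56%, against 3.27% of all genes) and limma voom 0. Calls made in only 1 tissue do not show by themselves that the tissues differ. The median log2 difference was 0.16, against -0.00 for all genes, with 54 of 78 positive. All 8 CCT genes were positive, with a median of 0.21. Without *Cct6b*, which fell in both tissues, the median of the other 7 was 0.16, the same as that of the chaperone genes together. *Hsf1* had an interaction of 0.74 at an adjusted p of 0.107, called by DESeq2 (0.76, adjusted p 0.0495) and without *Csn8* AKO sWAT 2 (0.88, adjusted p 0.0375). *Hspa2*, chosen after its values were seen, had 1.12 at an adjusted p of 0.0849 and was called by DESeq2 (1.14, adjusted p 0.0242), without Ctrl sWAT 1 (1.29, adjusted p 0.0347) and without the lymphocyte-rich libraries (1.10, adjusted p 0.0322). *Dnaja4*, also chosen after its values were seen, was called only without *Csn8* AKO BAT 1 (0.87, adjusted p 0.0412). *Wdr61*, named because it overlaps *Dnaja4* on the opposite strand, covers 44.1% of the exon bases of *Dnaja4*. *Wdr61* had 16629 counts over all libraries against 9346 for *Dnaja4*, and its part in the count of *Dnaja4* was not tested. Of the 4 chaperone genes called in sWAT, all were among the 30 called in BAT, with the same sign. This is common among all genes, since of 566 called lower in sWAT 397 (70.1%) were also called lower in BAT.

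Partial heat shock elements of 8 letters, shorter than the trimeric element, were sought as GAANNTTC or TTCNNGAA on either strand. The window ran from 250 bases before to 50 after the start of transcription, in a table of 32851 mouse promoters of 27025 genes. Of all genes in that table, 17% held a match. Of 63 chaperone genes with an entry, 18 did (28.6%), against 11 of 16 HSF1 targets (68.8%) and 3 of 7 CCT genes (42.9%). Matches were found for 3 of 10 genes higher in BAT (30%) and 3 of 13 lower (23.1%). The median log2 fold change in BAT was 0.21 for genes with a match and -0.03 for those without, and in sWAT -0.24 and -0.14. The stretches here show the motif at a start of an inducible HSP70 gene, of an inducible small heat shock protein gene with 2 motifs, of a CCT gene that rose in BAT and of a J-domain gene that fell there. For *Cct2* and *Dnajb4* the table lists 2 starts, and the stretch belongs to the downstream one, within the gene, while the window of the upstream start holds 0 motifs. Which start is used in fat was not measured. They are from GRCm38.p6 (RefSeq), 5′ to 3′ on the strand of the gene, with the motif in capitals: *Hspa1b* chr17:34959239-34959358 (minus), *Hspb1* chr5:135887799-135887918 (plus), *Cct2* chr10:117063376-117063495 (minus) and *Dnajb4* chr3:152193846-152193965 (minus). A match is a description, not a site or a cause.
Hspa1b: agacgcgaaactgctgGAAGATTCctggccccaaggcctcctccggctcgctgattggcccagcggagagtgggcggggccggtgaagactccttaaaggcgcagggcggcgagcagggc
Hspb1: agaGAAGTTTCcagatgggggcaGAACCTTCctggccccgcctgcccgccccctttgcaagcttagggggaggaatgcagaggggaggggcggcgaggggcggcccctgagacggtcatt
Cct2: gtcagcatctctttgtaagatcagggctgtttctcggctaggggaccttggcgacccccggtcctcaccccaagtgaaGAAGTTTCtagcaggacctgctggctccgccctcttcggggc
Dnajb4: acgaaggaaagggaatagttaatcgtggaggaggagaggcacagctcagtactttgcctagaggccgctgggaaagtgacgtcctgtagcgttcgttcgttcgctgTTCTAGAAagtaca

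Several chaperone genes share transcript sequence with other genes or pseudogenes, which lowers counts of uniquely aligned reads. Beside *Hspa1a* and *Hspa1b*, the share of 100-base windows found elsewhere was 44% for *Hspb1*, 38% for *Hsp90aa1*, 28.2% for *Hspa8*, 23.4% for *Hspd1* and 14.6% for *Dnajb6*. It exceeded 10% for 8 of the 79 and was 0 for 56. Levels of these genes may therefore be too low, while the same windows are lost in both genotypes.

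Further marker lists were examined as possible sources of chaperone RNA. Mast cell markers were called for 0 of 6 in sWAT by edgeR (4 higher at an unadjusted p under 0.05, 4 by DESeq2, 3 by limma voom) and higher for 4 of 5 in BAT. T cell markers were called for 0 of 8 in sWAT (0 at an unadjusted p under 0.05, 0 by DESeq2 and limma voom) and higher for 4 of 8 in BAT. B cell markers were called for 0 of 7 in sWAT (1 higher at an unadjusted p under 0.05, 1 by DESeq2, 1 by limma voom) and lower for 1 of 7 in BAT. Skeletal muscle markers were called for 0 of 16 in sWAT (2 lower at an unadjusted p under 0.05, 0 by DESeq2 and limma voom), and in BAT 4 of 12 were higher and 2 lower, with *Pvalb*, named for that reason, at 0 counts in Ctrl BAT. Smooth muscle markers were called for 0 of 7 in sWAT (0 at an unadjusted p under 0.05, 0 by DESeq2 and limma voom) and higher for 4 of 7 in BAT. Endothelial markers were called for 0 of 7 in sWAT (1 lower at an unadjusted p under 0.05, 1 by DESeq2, 0 by limma voom) and higher for 3 of 7 in BAT. Neutrophil markers were higher for 1 of 3 in sWAT and 1 of 2 in BAT. Neuron and glia markers were called for 0 of 4 in sWAT (2 higher at an unadjusted p under 0.05, 1 by DESeq2, 0 by limma voom) and higher for 3 of 3 in BAT. Of epithelial markers 1 could be tested in sWAT and was not called by any of the 3 tools. Immediate early genes, which respond to handling of tissue, were called for 0 of 14 in sWAT (3 higher at an unadjusted p under 0.05, 2 by DESeq2, 2 by limma voom), while in BAT 4 of 14 were higher and 1 lower, with summed TPM of 467, 526, 264, 609 and 945 in Ctrl and 1079, 312, 705, 775 and 2007 in *Csn8* AKO. Ribosomal RNA-like genes were called for 0 of 3 in both tissues (0 at an unadjusted p under 0.05, 0 by DESeq2 and limma voom).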

How the data were processed

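RNA was measured in 18 libraries from sWAT and BAT of Ctrl and *Csn8* AKO mice. The authors depleted ribosomal RNA with RNase H, aligned reads with STAR to Ensembl GRCm38 and counted them per gene with featureCounts, and the deposited count of each gene is not normalized. Whether strand was used is not stated. The authors also deposited CPM, relative to the library total, FPKM, which divides CPM by gene length, and TPM, whose total includes ribosomal RNA. Only the counts were tested. TPM over protein-coding genes was computed from counts and gene lengths, a choice made after classes of RNA were seen.

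Genotypes were compared within each tissue with edgeR 4.0.16 in R 4.3.3 by robust quasi-likelihood tests with TMM factors after filterByExpr (minimum count 10, minimum total 15), and p values were adjusted by the method of Benjamini and Hochberg over all genes tested. Intervals are at 95%. The interaction used all 18 libraries. The code was tested on simulated data. Tables used scipy 1.17.1, pandas 2.3.3 and numpy 2.4.6 under Python 3.11.15. Alternatives were DESeq2 1.42.0, voom with quality weights in limma 3.58.1, RLE factors, library size alone, other filters, 1 fit of all 4 groups, a replicate term, fits without ribosomal RNA genes, and each library left out. Fits without lymphocyte-rich sWAT or muscle-rich BAT libraries and TPM over genes other than ribosomal RNA were added after the data were seen.

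The chaperone genes and the lists of chaperones, HSF1 targets and cell markers were chosen with earlier results of these data known. Named are 18 well-known chaperone genes, up to 8 called per direction and tissue with an average log2 CPM of at least 1, up to 5 per direction of the interaction, the 4 genes left out, up to 3 called per direction of each other chaperone list, the most abundant gene of each role, defining markers, and *Cops8*. For any other gene the text says that it was picked with its values in view. Transcript and promoter sequences come from GENCODE M21 and RefSeq.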

Additional observations from a re-analysis of the deposited data

Results flagged for a closer look

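Values that stood apart from the rest of their group were sought in 50 genes and 200 groups of libraries, and 12 groups (6%) held one. Chance flags about 1 in 20 groups. All are TMM CPM, and the causes were not tested. *Hsf1* was 99.7 in *Csn8* AKO BAT 5, next to 60.4. *Hsp90ab1* was 799 in Ctrl sWAT 4, next to 738. *Hspa1a* was 5.28 in Ctrl BAT 2, next to 1.59. *Hspa1b* was 11.4 in the same library, next to 3.77. *Hspa9* was 1122 in *Csn8* AKO BAT 2, next to 856. *Hspd1* was 519.7 in that library, next to 370.3. *Dnajc11* was 40.2 in Ctrl sWAT 3, next to 43.6. *Cct4* was 116 in *Csn8* AKO sWAT 1, next to 86.8. *Dnajc22* was 0.0905 in Ctrl sWAT 1, next to 0. *Hspa5* was 206 in Ctrl BAT 1, next to 241. *Dnajb9* was 38.3 in *Csn8* AKO sWAT 1, next to 21.1. *Cryab* was 89.9 in Ctrl sWAT 2, next to 50.7. *Cryab* also had opposite signs in the tissues, with an interaction of 1.71 (adjusted p 0.00393).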

How the results depend on the processing

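Of the alternatives, 75 were written at the start and 8 were added after seeing the data. The cause of any change was not tested. In sWAT 4 chaperone genes were lower in *Csn8* AKO, 5.19% against 3.00% of all genes. This count was 13 with all 4 groups in one fit (16.7% against 6.30%) and 2 with library size alone (2.60% against 1.74%). It was 12 with limma voom (15.6% against 5.72%) and 7 without the lymphocyte-rich Ctrl 1 and *Csn8* AKO 2 (9.09% against 4.46%). With 1 library left out it was 1 to 5 (1.30% to 6.49%, against 0.909% to 3.51%). With a block for the replicate number it was 0, but the numbers do not pair mice: correlations of libraries of the same number were -0.214, -0.481, 0.377 and -0.127 in sWAT and 0.151, -0.183, -0.0322, -0.136 and 0.239 in BAT. In BAT 13 were higher (16.7% against 16.0%), and 22 under library size alone (28.2% against 18.7%). With 1 library left out the count of higher genes was 9 to 21 (11.5% to 26.9%, against 13.0% to 17.7%). In BAT 17 were lower (21.8% against 15.8%). That count was 11 with all 4 groups in one fit (14.1% against 11.9%) and 7 under library size alone (8.97% against 9.34%). For the interaction 0 were higher in BAT, with 2 by DESeq2 (2.56% against 3.27%). The count was 0 to 1 with 1 library left out, and 1 without the lymphocyte-rich libraries (1.28% against 2.03%).

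Summed TPM of the chaperone genes in Ctrl sWAT, *Csn8* AKO sWAT, Ctrl BAT and *Csn8* AKO BAT was 6731, 7322, 5777 and 7001 over protein-coding genes, 4264, 3644, 4658 and 5324 over genes other than ribosomal RNA, and 3680.4, 3008, 4420.2 and 4935 as deposited. The order of the genotypes in sWAT and of the tissues in Ctrl thus depends on the total used, while that of the genotypes in BAT does not.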
